A study of Mus musculus with 24 samples.

Results

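Mouse eosinophils labelled Irf5-/- were sequenced after an overnight exposure to granulocyte-macrophage colony-stimulating factor (GM-CSF) and without it. This contrast used 6 of the 24 libraries of the series, 3 from GM-CSF-treated and 3 from untreated cells, which were chosen by their genotype and treatment labels, and it covered all 25746 genes listed per library. The eosinophils were grown from bone marrow of C57BL/6 mice. Progenitors were expanded in stem cell factor and FLT3 ligand (100 ng/ml each) up to day 4 and then matured in interleukin-5 (IL-5, 10 ng/ml), and dead cells were removed on day 13. The treated group received recombinant mouse GM-CSF at 20 ng/ml together with IL-5, whereas the untreated group received IL-5 alone, so every library in the series came from cells held in IL-5. Wild-type cells and cells labelled Csf2ra-/- with the same pair of treatments, 3 libraries per group, served for comparison. The labels mention triplicates without saying whether these came from separate mice or cultures. Y-linked sums in libraries labelled Irf5-/- were 165, 13.4 and 44.2 CPM of the total counts with GM-CSF. Without it they were 179, 12.2 and 39.2 CPM. The replicates of each of these groups therefore differed in Y-linked content and were not repeats of the same cell mix. The p-values rest on a spread estimated over all 24 libraries, and its technical part was not tested.

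GM-CSF, IL-3 and IL-5 are related cytokines that prolong eosinophil survival. Each binds its own alpha chain (Csf2ra encodes the one for GM-CSF) and signals through a shared beta chain to JAK2, STAT5 and the MAP kinase cascade. IRF5 is a transcription factor of myeloid cells that acts downstream of Toll-like receptors and is known in macrophages for driving inflammatory cytokine and chemokine genes. The comparison asks how eosinophils that carry an Irf5 knockout label respond to GM-CSF on top of IL-5.

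The targeted gene went against the genotype label. Irf5 (ENSMUSG00000029771) stood at 1999, 1584 and 1394 CPM (read counts relative to library size, with library sizes adjusted by edgeR's trimmed-mean method, TMM) in GM-CSF-treated cells labelled Irf5-/-, against 1577, 1891 and 1568 CPM in the untreated ones. As CPM of the total counts, its mean was 1682 in these 6 libraries and 52.8 in the other 18 libraries of the series, with no overlap between 1401 to 2027 CPM and 29.1 to 94.4 CPM. A count over the whole gene tells neither the exons that gave the reads nor whether the transcript was functional. GM-CSF did not change Irf5 detectably (log2 fold change -0.02 ± 0.16 SE, adjusted p = 0.999). The genotype is therefore given as a label throughout, and every statement on these libraries rests on that label.

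Total counts in the 6 libraries ranged from 6222979 in untreated replicate 1 to 15342210 in untreated replicate 3, and the 3 GM-CSF libraries held 12278558 to 13699428. Between 13001 and 14447 genes had a count. Granule genes that define eosinophils were abundant in each library, with Epx (eosinophil peroxidase) at 13937 to 15310 CPM in GM-CSF-treated and 14611 to 17059 CPM in untreated cells.

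GM-CSF raised 42 of 11885 tested genes in the cells labelled Irf5-/- and lowered 0 at a Benjamini-Hochberg adjusted p under 0.05 in edgeR's quasi-likelihood test. The 42 were 0.353% of the genes tested, and 37 of them rose by at least 2-fold. They included 5 chemokine genes, the fungal receptor gene Clec4n, the lipoprotein receptor gene Tlr2, the receptor tyrosine kinase genes Axl and Flt1, and the transcription factor gene Irf4. At an unadjusted p under 0.05 stood 434 genes with higher and 258 with lower levels, and DESeq2 called 76 higher and 2 lower (Igf1 and Acap1). The median log2 fold change over all tested genes was 0.01. In all 42 genes the lowest GM-CSF library lay above the highest untreated one, a separation that 8.73% of all tested genes showed in the same direction. Of the 42 genes 14 had a mean under 5 CPM over the 6 libraries.

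Replicates did not contribute equally. GM-CSF replicate 1 was the highest of the 6 libraries in 37 of the 42 genes, and untreated replicate 1, the shallowest library, was the lowest in 29. These 29 include the ties of Rbp4 and Ffar4, which had 0 counts in all 3 untreated libraries. Both libraries numbered 1 also had the highest Y-linked sums of their groups, at 165 and 179 CPM of the total counts. Without GM-CSF replicate 1 edgeR called 11 genes, and without untreated replicate 1, 2 or 3 it called 16, 16 and 21. A fit of only these 6 libraries called 39 genes, 24 of them among the 42. The fit of all other libraries of the series called 37 and 41 genes without GM-CSF replicate 2 or 3, and 8 without both libraries numbered 1. Of the 42 genes, 11 kept their call whichever of the 6 libraries was left out, namely Ccl17, Ccl24, Ccl4, Clec4n, Tlr2, Axl, Plet1, Scimp, Car4, Ccnd2 and Vdr.

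**Figure D1:**
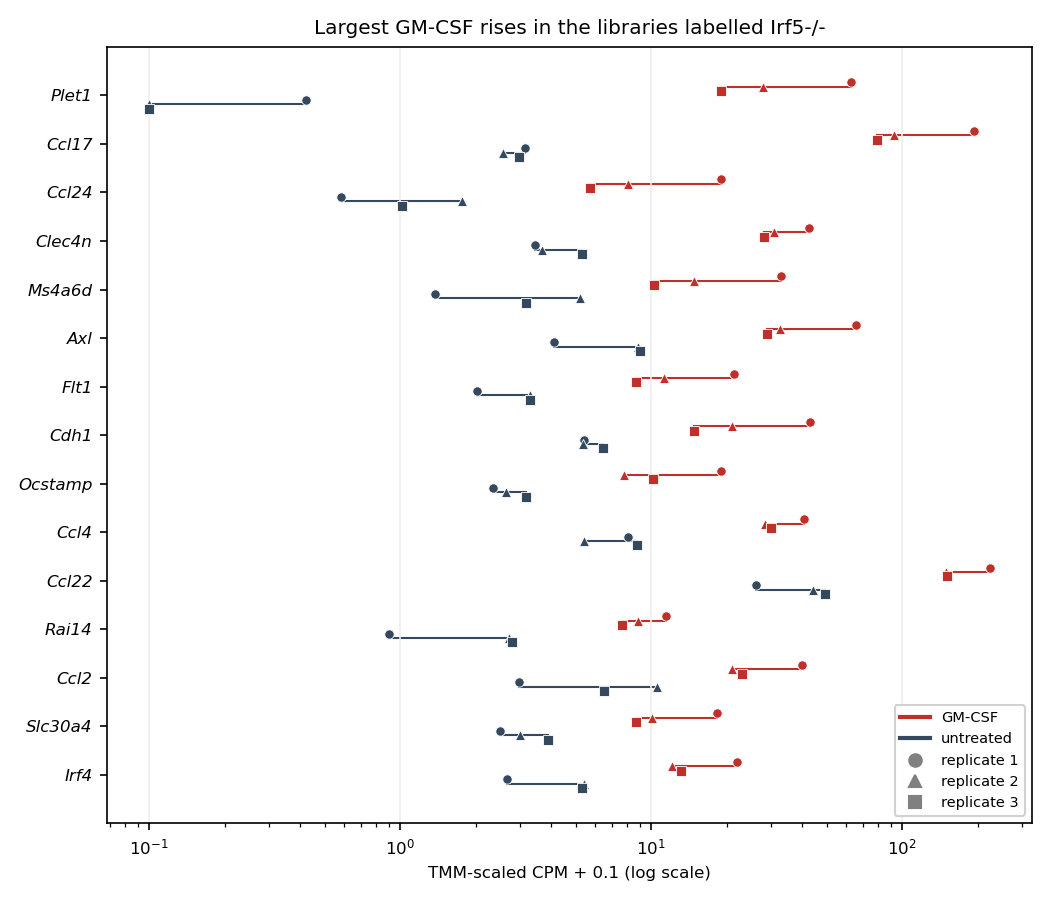
TMM-scaled CPM plus 0.1 on a log scale for the 15 genes with the largest called rises at a mean of at least 5 CPM, in GM-CSF-treated (red, upper row of each gene) and untreated (dark, lower row) libraries labelled Irf5-/-. Symbols mark replicates 1 to 3 and lines span each group; the groups do not overlap for any of the 15, and GM-CSF replicate 1 is the highest point of each gene.

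Several chemokine genes rose. Of 12 chemokine genes tested, 5 were called higher and 0 lower, beside 0.353% called higher of all tested genes, and their median log2 fold change was 1.24. Ccl17 (ENSMUSG00000031780, GRCm38 chromosome 8, 94810453 to 94812036), a ligand of CCR4 on T helper 2 and regulatory T cells, had 193, 92.3 and 79.4 CPM in GM-CSF-treated cells, against 3.04, 2.47 and 2.88 CPM in untreated cells. The untreated libraries lay close together and far below all 3 treated ones, a log2 fold change of 5.46 ± 0.45 (adjusted p = 1.68e-06). In a fit of only these 6 libraries the log2 fold change was 5.45 and the call was lost (adjusted p = 0.0613). Ccl22 (chromosome 8, 94745590 to 94751699), which encodes the other CCR4 ligand and lies near Ccl17 with Cx3cl1 between them, was already expressed without GM-CSF. It had 224, 149 and 151 CPM in treated cells, against 26.1, 44.1 and 49.3 CPM in untreated cells (2.11 ± 0.35, adjusted p = 0.00706).

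The eotaxin gene Ccl24, whose product attracts eosinophils through CCR3, had 18.8, 8.02 and 5.59 CPM with GM-CSF and 0.48, 1.67 and 0.92 CPM without (3.26 ± 0.50, adjusted p = 0.00253), a call lost with limma-voom (0.161) and in the fit of only these 6 libraries (0.167). Ccl4, a chemokine gene of activated leukocytes, had 40.4, 28.3 and 29.9 CPM in treated cells, against 8.0, 5.31 and 8.69 CPM in untreated cells (2.17 ± 0.26, adjusted p = 7.33e-05). The monocyte attractant gene Ccl2 had 39.7, 20.9 and 23 CPM with GM-CSF and 2.88, 10.5 and 6.40 CPM without (2.00 ± 0.36, adjusted p = 0.0110). Its untreated libraries spread widely, and replicate 1 was the lowest. Ccl2 lost its call without GM-CSF replicate 1 or untreated replicate 1 or 3 (adjusted p of 0.104, 0.0814 and 0.0946), and Ccl22 without GM-CSF replicate 1 or untreated replicate 1 or 2 (0.0608, 0.0782 and 0.0544). Both calls were also lost in the fit of only these 6 libraries, with and without a replicate block. Over all settings the adjusted p reached 0.570 for Ccl2 and 0.365 for Ccl22.

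Of the remaining chemokine genes, Ccl7, Ccl9 and Cxcl2 had separated groups and did not pass in edgeR's fit of all 24 libraries. Ccl9 had 192, 145 and 152 CPM with GM-CSF and 72.8, 89.4 and 88.4 CPM without (0.96 ± 0.24, adjusted p = 0.119). It was called by DESeq2 (0.01305) and by edgeR in the fit of only these 6 libraries (0.00238), also with a replicate block (0.00518). Ccl6, the most abundant chemokine gene of the list in CPM, stood at 5686 to 6466 CPM in treated and 5808 to 6941 CPM in untreated cells (-0.09 ± 0.16, adjusted p = 0.998). Ccl3 (0.17 ± 0.14), Cxcl16 (-0.18 ± 0.36) and Cxcl3 (-0.40 ± 0.23) had overlapping groups. Another 8 listed chemokine genes had too few reads to be tested, and Cxcl9 had 0 counts in all 6 libraries.

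The RefSeq promoter windows of Ccl17, Ccl22 and Car4, a carbonic anhydrase gene described below with the enzymes, are shown because the first pair lie near each other and both rose and Car4 differed in response from cells labelled Csf2ra-/-. Each window runs from 250 bases before to 50 bases after the start on GRCm38.p6. Their positions are chr8:94810203-94810502, chr8:94745434-94745733 and chr11:84957504-84957803, all on the plus strand. Capitals mark a match to TTCNNNGAA, the letters bound by STAT factors, in Ccl17 (99 to 91 bases before the start) and to the kappaB motif in Car4 (159 to 150 bases before the start).
Ccl17: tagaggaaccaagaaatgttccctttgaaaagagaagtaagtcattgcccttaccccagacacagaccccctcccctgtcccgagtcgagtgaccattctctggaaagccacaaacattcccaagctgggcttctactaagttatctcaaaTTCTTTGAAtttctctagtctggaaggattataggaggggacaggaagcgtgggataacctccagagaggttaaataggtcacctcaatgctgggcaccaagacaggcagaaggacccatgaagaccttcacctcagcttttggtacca
Ccl22: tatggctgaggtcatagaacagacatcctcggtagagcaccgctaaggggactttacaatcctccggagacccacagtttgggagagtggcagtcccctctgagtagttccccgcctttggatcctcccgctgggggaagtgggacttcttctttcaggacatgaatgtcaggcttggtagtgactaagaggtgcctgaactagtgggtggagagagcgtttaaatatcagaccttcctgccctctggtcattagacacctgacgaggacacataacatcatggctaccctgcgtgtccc
Car4: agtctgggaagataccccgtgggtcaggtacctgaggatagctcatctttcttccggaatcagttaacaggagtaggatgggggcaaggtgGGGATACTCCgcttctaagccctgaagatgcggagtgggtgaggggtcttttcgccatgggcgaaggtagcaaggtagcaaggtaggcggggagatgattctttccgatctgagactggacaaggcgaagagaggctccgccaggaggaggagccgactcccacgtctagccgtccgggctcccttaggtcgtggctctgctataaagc
No match to either motif, or to the CArG box of serum response factor, was found in the Ccl22 window. On both strands, TTCNNNGAA occurred in 8.30% of 32851 RefSeq windows of this length, the kappaB motif in 4.51% and the CArG box in 1.63%. Of the 42 genes, 28 had a window (35 windows in all), of which 1 held TTCNNNGAA, 4 the kappaB motif and 0 the CArG box. A match describes letters and not binding.

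Clec4n (ENSMUSG00000023349, chromosome 6, 123229843 to 123247021), which encodes the fungal pattern receptor dectin-2, had 42.6, 30.7 and 28 CPM with GM-CSF and 3.36, 3.56 and 5.23 CPM without. Treated cells held about 8.10 times the untreated level (3.02 ± 0.30, adjusted p = 7.06e-06). Tlr2, the receptor for bacterial lipoproteins, had 11.3, 11.2 and 9.15 CPM with GM-CSF, against 4.80, 2.62 and 3.92 CPM without (1.52 ± 0.20, adjusted p = 0.000365). These were the 2 of 20 tested C-type lectin and Toll-like receptor genes (10%) that rose, beside 0.353% of all tested genes. In this list 0 fell, and the median was -0.03. Clec7a, which encodes the beta-glucan receptor dectin-1, had separated groups at 33.7 to 41.4 CPM with GM-CSF and 24.5 to 30.6 CPM without and did not pass (0.43 ± 0.14, adjusted p = 0.406).

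Plet1, a surface protein gene of epithelial progenitors and some myeloid cells, was nearly without reads in untreated cells. It had 62.7, 27.9 and 19 CPM in treated cells, against 0.32, 0 and 0 CPM in untreated cells. Over the groups these were 1392 and 2 counts, a depth-adjusted ratio of 640 with an exact 95% counting interval of 177 to 5290 that covers counting error only (adjusted p = 0.000881). Both untreated counts came from replicate 1. In fits that left out 1 of the other 5 libraries the log2 fold change was 8.37 to 9.42, against 9.11 with all, and the call was lost with limma-voom (0.379) and in the fit of only these 6 libraries (0.147). Scimp, an adaptor gene of antigen-presenting cells, was low in CPM and yet separated well, at 4.18, 3.97 and 2.69 CPM with GM-CSF and 0.16, 0.22 and 0.20 CPM without (4.13 ± 0.48, adjusted p = 7.18e-05).

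Axl, a receptor tyrosine kinase gene of macrophages that recognises apoptotic cells through GAS6, had 65.2, 32.4 and 28.8 CPM in treated cells, against 4.00, 8.73 and 8.95 CPM in untreated cells (2.47 ± 0.34, adjusted p = 0.000562). Axl lost its call in the fit of only these 6 libraries (0.217), also with a replicate block (0.428). Flt1, which encodes a receptor for vascular endothelial growth factor, had 21.2, 11.1 and 8.64 CPM with GM-CSF and 1.92, 3.20 and 3.20 CPM without (2.23 ± 0.37, adjusted p = 0.00414). The adhesion molecule gene Cdh1 (E-cadherin) had 42.9, 21 and 14.7 CPM in treated and 5.28, 5.24 and 6.34 CPM in untreated cells (2.20 ± 0.42, adjusted p = 0.0165). Treated replicates of Axl and Cdh1 differed by more than 2-fold among themselves, and the replicate with the highest value was number 1 in both. Ms4a6d, a tetraspan membrane protein gene, and Ocstamp, known in osteoclasts for a role in cell fusion, rose by 2.50 ± 0.51 and 2.19 ± 0.43 on the log2 scale (adjusted p = 0.0338 and 0.0212). Flt1 lost its call without GM-CSF replicate 1 (adjusted p = 0.0525), with limma-voom and in the fit of only these 6 libraries. Over all settings its adjusted p reached 0.281. Cdh1, Ms4a6d and Ocstamp lost theirs without GM-CSF replicate 1 or any untreated library (0.0883 to 0.151, 0.0758 to 0.300 and 0.0980 to 0.215). They also did so with limma-voom and without a low-count filter, and Cdh1 and Ms4a6d in the fit of only these 6 libraries.

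Smaller rises touched surface genes known for contacts with other cells. Itgax, the integrin CD11c, had 85.0, 64.8 and 66.4 CPM with GM-CSF and 44.0, 44.5 and 51.6 CPM without (0.62 ± 0.12, adjusted p = 0.0110). It was the 1 of 19 adhesion genes called. Tnfsf4, which encodes the T-cell costimulatory OX40 ligand, had 3.78, 3.02 and 2.76 CPM in treated and 0.64, 0.73 and 1.31 CPM in untreated cells (1.75 ± 0.34, adjusted p = 0.0152), and was the 1 of 14 costimulatory and checkpoint ligand genes called. Ccr2, the receptor for the Ccl2 product, had 39.8, 22.5 and 19.2 CPM with GM-CSF and 7.84, 14 and 11.7 CPM without (1.24 ± 0.26, adjusted p = 0.0378). It was the 1 of 22 chemoattractant receptor genes called. In that list 1 gene was lower at an unadjusted p under 0.05, and the lowest log2 fold change was -1.96. The called shares of the adhesion, ligand and receptor lists were 5.26%, 7.14% and 4.55%, beside 0.353% called higher of all tested genes. Itgax and Tnfsf4 lost their calls without GM-CSF replicate 1 or untreated replicate 1 or 2 (0.114 to 0.158 and 0.117 to 0.169), and Ccr2 without GM-CSF replicate 1 or any untreated library (0.0758 to 0.457).

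Among enzymes, transporters and secreted proteins, Car4 (ENSMUSG00000000805, chromosome 11, 84957786 to 84966044), a membrane-anchored carbonic anhydrase gene, was among the steadiest. It had 220, 254 and 251 CPM in treated cells, against 74.1, 102 and 94.5 CPM in untreated cells (1.42 ± 0.17, adjusted p = 7.33e-05). Mmp12, the macrophage elastase gene, had 332, 205 and 237 CPM with GM-CSF and 61.0, 87.7 and 116 CPM without (1.54 ± 0.27, adjusted p = 0.00759). Spp1, which encodes the matrix protein osteopontin, had 165, 179 and 194 CPM in treated and 94.2, 92.0 and 106 CPM in untreated cells (0.88 ± 0.19, adjusted p = 0.0436). The growth factor gene Hbegf had 9.16, 6.75 and 8.21 CPM with GM-CSF and 4.48, 4.29 and 3.40 CPM without (1.00 ± 0.21, adjusted p = 0.0307).

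Mmp12, Spp1 and Hbegf were the 3 of 25 alternative activation and tissue remodelling genes (12%) called higher in the fit of all 24 libraries, beside 0.353% of all tested genes. In the fit of only these 6 libraries edgeR called Chil3 of that list higher (0.87, adjusted p = 0.00238) and Igf1 lower (-1.35, 0.0327). The calls of Mmp12 and Hbegf were lost in that fit. The median of that list was 0.05. Slc30a4, a zinc transporter gene, and Rai14, an actin-associated protein gene, rose by 1.97 ± 0.35 and 2.05 ± 0.39 (adjusted p = 0.00763 and 0.0133). Mmp12 and Slc30a4 lost their calls without GM-CSF replicate 1 or untreated replicate 1 or 2 (0.0687 to 0.0814 and 0.0781 to 0.0873), and Rai14 without GM-CSF replicate 1 or any untreated library (0.0588 to 0.105). Hbegf lost its call without any library but GM-CSF replicate 2 (0.0830 to 0.226), and Spp1 without any library (0.115 to 0.282).

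Irf4, a transcription factor gene of dendritic cells and alternatively activated macrophages, had 21.9, 12 and 13.0 CPM in treated cells, against 2.56, 5.31 and 5.23 CPM in untreated cells (1.77 ± 0.36, adjusted p = 0.0245). It was the 1 of 9 interferon regulatory factor genes called (11.1%), beside 0.353% of all tested genes. Its call was lost without GM-CSF replicate 1 or any untreated library (0.0956 to 0.224). Ccnd2, the cyclin D2 gene and a STAT5 target in other blood cells, had 54.8, 49.8 and 55.3 CPM with GM-CSF and 35.7, 30.1 and 34.4 CPM without (0.68 ± 0.11, adjusted p = 0.00261). The replicates of each group lay close together. Ccnd2 was the 1 of 18 STAT5 target and cytokine feedback genes called (5.56%), beside 0.353% of all tested genes. Of the 18, 15 had a positive log2 fold change (median 0.27), and 5 were higher at an unadjusted p under 0.05. Separated groups were found in 8 with higher levels (44.4%, beside 8.73% of all tested genes) and 1 with lower levels. Among the separated genes, Socs3 stood at 33.2 to 47.2 CPM with GM-CSF and 22.5 to 27.1 CPM without. Socs3 did not pass (0.74 ± 0.22, adjusted p = 0.272), except in the fit of only these 6 libraries (0.0334).

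Vdr, the vitamin D receptor gene, had 4.98, 3.97 and 2.47 CPM in treated cells, against 0, 0.44 and 0.39 CPM in untreated cells (3.48 ± 0.56, adjusted p = 0.00289), a call lost with limma-voom (0.120). Spred1, which encodes an inhibitor of the RAS and MAP kinase cascade, had 26.4, 20.9 and 27.3 CPM with GM-CSF and 13.9, 13.7 and 16.8 CPM without (0.74 ± 0.15, adjusted p = 0.0244). It lost its call without GM-CSF replicate 1 or 3 or untreated replicate 1 or 2 (0.110 to 0.188). Spred1 was the 1 of 16 genes of MAP kinase phosphatases and feedback regulators called (6.25%), beside 0.353% of all tested genes. The other called genes were Rasgef1b, Sema6d, Slfn1, Edn1, Txk, Nrp2, Synpo, Aldh1a2, Tmem268, Plxdc2, Inhba and Zbtb46, with log2 fold changes of 0.76 to 3.17, of which each lost its call at least without GM-CSF replicate 1 (adjusted p of 0.0554 to 0.397), and Alpk2, Rbp4 and Ffar4. The last 3 had few reads. Alpk2 had 58 counts over the treated and 2 over the untreated libraries, a ratio of 26.7 (95% counting interval 7.06 to 225), and Rbp4 had 37 against 0 and Ffar4 23 against 0, at least 11.3-fold and at least 7.05-fold higher against a floor of 3 counts over the group. Alpk2 lost its call without GM-CSF replicate 1 or any untreated library (adjusted p of 0.177 to 0.4003), Rbp4 without GM-CSF replicate 1 or untreated replicate 2 or 3 (0.0554 to 0.0687), and Ffar4 without any library (0.0596 to 0.261). GM-CSF replicate 1 held 44 of the 58 Alpk2 counts, and without it the log2 fold change was 3.06 against 4.55 with all libraries. These 15 genes were named after their values were seen.

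Of 9 tested genes reported as IRF5 targets in other cells 2 rose, Ccl4 and Itgax, with a median of 0.33. These were 22.2% of the list, beside 0.353% of all tested genes, and 4 of the 9 (44.4%) had separated groups, beside 8.73% of all tested genes. Tnf had separated groups, with 45.1, 42.8 and 39.1 CPM in treated and 37.0, 33.1 and 31.2 CPM in untreated cells (0.33 ± 0.12, adjusted p = 0.520). Il6 had 8.19, 13.9 and 12.3 CPM with GM-CSF and 13.8, 13.5 and 10.2 CPM without, with overlapping groups (-0.11 ± 0.23, adjusted p = 0.998). Il12a, Il12b and Il23a had too few reads for the test, with at most 5 counts in any of the 6 libraries, so a change in them was not detectable at this depth.

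Of 8 inflammatory cytokine genes tested 0 were called by edgeR, with 4 higher at an unadjusted p under 0.05. Il1b had 9.88, 8.02 and 8.5 CPM in treated cells, against 4.00, 1.82 and 3.53 CPM in untreated cells (1.54 ± 0.35, adjusted p = 0.0548). It was called by DESeq2 (adjusted p = 0.00485) and by edgeR in the fit of only these 6 libraries (0.0126). Of 14 interferon-stimulated genes 0 were called by edgeR, DESeq2 or limma-voom, 0 had an unadjusted p under 0.05, and 0 had separated groups. Of 16 genes for the receptors of GM-CSF, IL-3 and IL-5 and their signalling 0 were called by these 3 tools and 0 had an unadjusted p under 0.05. Csf2ra had 55.4, 69.4 and 54.5 CPM with GM-CSF and 68.3, 83.5 and 59.1 CPM without (-0.24 ± 0.14, adjusted p = 0.952), and Il5ra 52.2, 71.0 and 74.3 CPM with and 94.9, 77.8 and 82.9 CPM without (-0.37 ± 0.25, adjusted p = 0.963). The Il5ra groups did not overlap, which 7.19% of all tested genes showed in that direction.

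Of 9 genes of major histocompatibility complex (MHC) class II presentation 0 were called by edgeR, while 6 were higher at an unadjusted p under 0.05 and the median log2 fold change was 1.07. DESeq2 called H2-DMa, which encodes a chain of the class II peptide loading factor (1.24, adjusted p = 0.005109). In 2 of the 9 genes (22.2%) the groups were separated, beside 8.73% of all tested genes. H2-Aa, a class II alpha chain gene, had 141, 63.1 and 48.7 CPM in treated cells, against 21.1, 55.3 and 41.8 CPM in untreated cells (1.07 ± 0.41, adjusted p = 0.658). The GM-CSF value of replicate 1 was the highest and the untreated value of replicate 1 the lowest, and the other 4 libraries lay between 41.8 and 63.1 CPM. The invariant chain gene Cd74 followed the same order of extremes, with 436, 220 and 176 CPM with GM-CSF and 68.5, 177 and 128 CPM without (1.15 ± 0.37, adjusted p = 0.410). The lectin gene Mgl2 of dendritic cells and macrophages had 247, 92.5 and 63.2 CPM with GM-CSF and 24.5, 68.4 and 43.4 CPM without (1.54 ± 0.50, adjusted p = 0.433).

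Markers of other cell types were read as whole lists beside these values. The 9 MHC class II presentation genes summed to 494 to 1121 CPM in treated and 296 to 544 CPM in untreated libraries. The 12 dendritic cell markers, of which 11 could be tested and Zbtb46 was called (it lost its call without any library but GM-CSF replicate 3), summed to 169.9 to 175 CPM in treated and 132 to 174 CPM in untreated libraries. Of the 11, 10 had a positive log2 fold change, with a median of 0.56 beside 0.01 over all tested genes, and 4 (36.4%) had separated groups, beside 8.73% of all tested genes. DESeq2 also called Cd209a, as did edgeR in the fit of only these 6 libraries with a replicate block (0.0126). Xcr1 had 0 counts in all 6 libraries. The 18 monocyte and macrophage markers summed to 2634 to 2722 CPM in treated and 2611 to 2904 CPM in untreated libraries. Axl and Ccr2 were called of 16 tested, and Marco had 0 counts throughout. At an unadjusted p under 0.05, 2 of the 16 were higher and 2 lower, and log2 fold changes ran from -1.96 to 2.47. Lyz2 was called lower by edgeR in the fit of only these 6 libraries with a replicate block (-0.55, adjusted p = 0.0210). The complement genes C1qa, C1qb and C1qc, which mark tissue macrophages, were low, with at most 6.35 CPM. The 18 neutrophil markers summed to 2932 to 3186 CPM in treated and 3408 to 3497 CPM in untreated libraries. In the fits of all 24 libraries 0 were called by edgeR, DESeq2 or limma-voom, and 4 were lower at an unadjusted p under 0.05. Of these markers, Retnlg was called lower by edgeR in the fit of only these 6 libraries (-0.78, adjusted p = 0.0254), also with a replicate block (0.0351). Fewer cells of a type and less RNA per cell cannot be told apart in such bulk libraries, and the part of other cells in the rises was not tested.

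**Figure D2:**
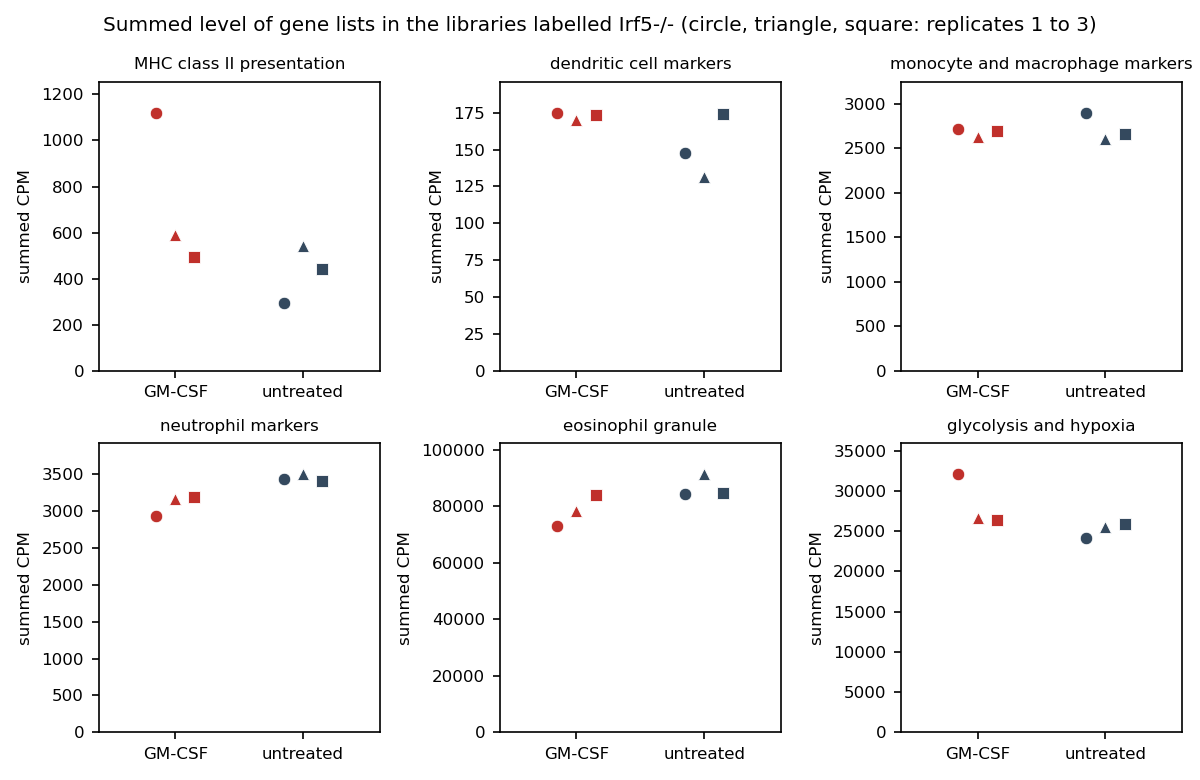
Summed CPM of 6 gene lists in the libraries labelled Irf5-/-, GM-CSF left and untreated right, with circle, triangle and square for replicates 1 to 3. The MHC class II sum is 1121 CPM in GM-CSF replicate 1 and 296 CPM in untreated replicate 1, while the monocyte and macrophage sums lie between 2611 and 2904 CPM in all 6 libraries.

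Eosinophil identity genes did not pass the test. Of 8 granule genes tested 0 were called by edgeR, DESeq2 or limma-voom and 0 had an unadjusted p under 0.05, with a median of -0.17, and their summed level was 73012 to 83827 CPM in treated and 84377 to 91388 CPM in untreated libraries, with no overlap. Prg2, major basic protein, was at -0.16 ± 0.12 (adjusted p = 0.981). The Ear ribonuclease genes are near-identical copies whose counts may be split by the authors' counting. Of 17 lineage factors and markers 0 were called by these tools, with 1 higher and 1 lower at an unadjusted p under 0.05. Siglecf, a lectin that marks mouse eosinophils, had 286, 372 and 392 CPM with GM-CSF and 438, 379 and 396 CPM without (-0.21 ± 0.18, adjusted p = 0.996).

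Set beside wild-type cells, the rises were largely shared in direction. GM-CSF raised 49 genes (0.412% of those tested) and lowered 17 (0.143%) in wild type, in libraries that the comparison above does not share. Y-linked sums were 184, 176 and 52.6 CPM of the total counts in treated and 175, 56.9 and 50.7 in untreated wild-type libraries. Unlike in the libraries labelled Irf5-/-, these levels were not alike between the treatments for every replicate number. Of the 42 genes raised in cells labelled Irf5-/-, 27 were also called in wild type, which is 64.3% of the 42 and 55.1% of the wild-type 49. All 49 wild-type rises had a positive log2 fold change in cells labelled Irf5-/-, with a median of 1.52 there and 1.63 in wild type. Of the 15 genes called only in cells labelled Irf5-/-, 12 had an unadjusted p under 0.05 in wild type, and of the 22 called only in wild type, 21 had one in cells labelled Irf5-/-.

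A test of the difference between the responses called 0 of 11885 genes by edgeR at an adjusted p under 0.05, with 375 at an unadjusted p under 0.05. DESeq2 called 1 gene, Egr1, and limma-voom called 0. For some rises the interval of the difference was narrow. The response of Ccnd2 in cells labelled Irf5-/- differed from that in wild type by -0.02 on the log2 scale (95% interval -0.33 to 0.29), that of Car4 by -0.09 (-0.57 to 0.40) and that of Itgax by -0.08 (-0.42 to 0.26). For others it was wide, with Ccl17 at 0.52 (-0.74 to 1.79), Ccl24 at 0.32 (-1.16 to 1.81) and Irf4 at 0.15 (-0.87 to 1.16). A missed threshold therefore does not show that the 2 genotypes respond alike.

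**Figure D3:**
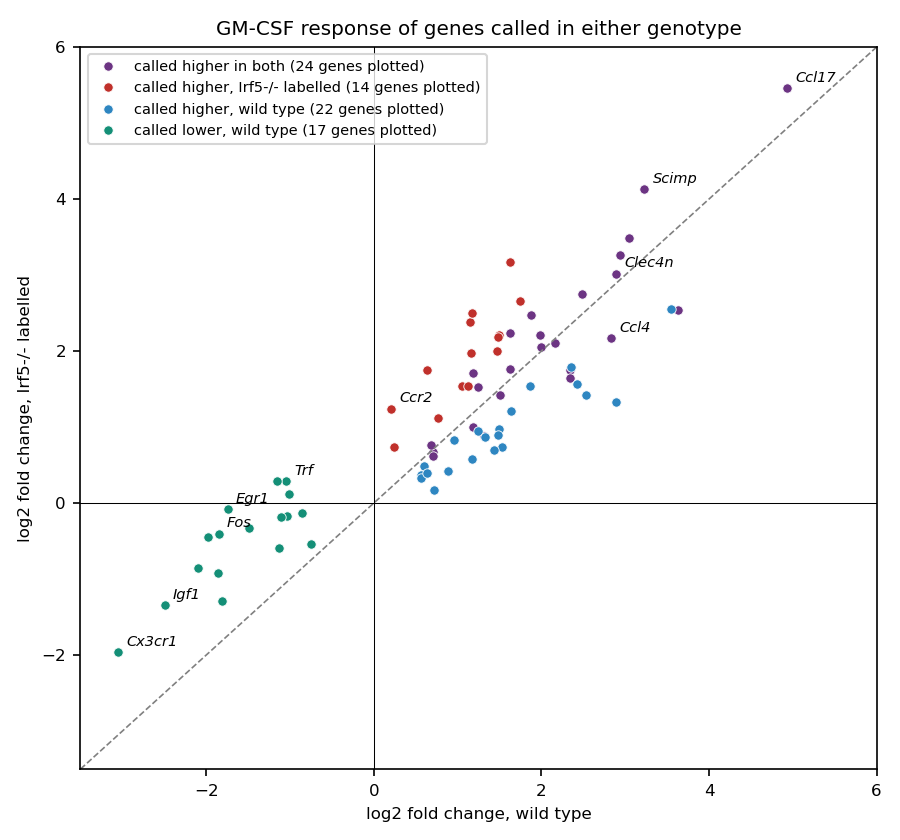
GM-CSF log2 fold change in cells labelled Irf5-/- (vertical) against wild type (horizontal) for 77 of the 81 genes called in either, without 4 genes that had 0 to 2 counts in an untreated group; the dashed line marks equal responses. The 17 genes lowered in wild type (green) all lie above the line.

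**Figure D4:**
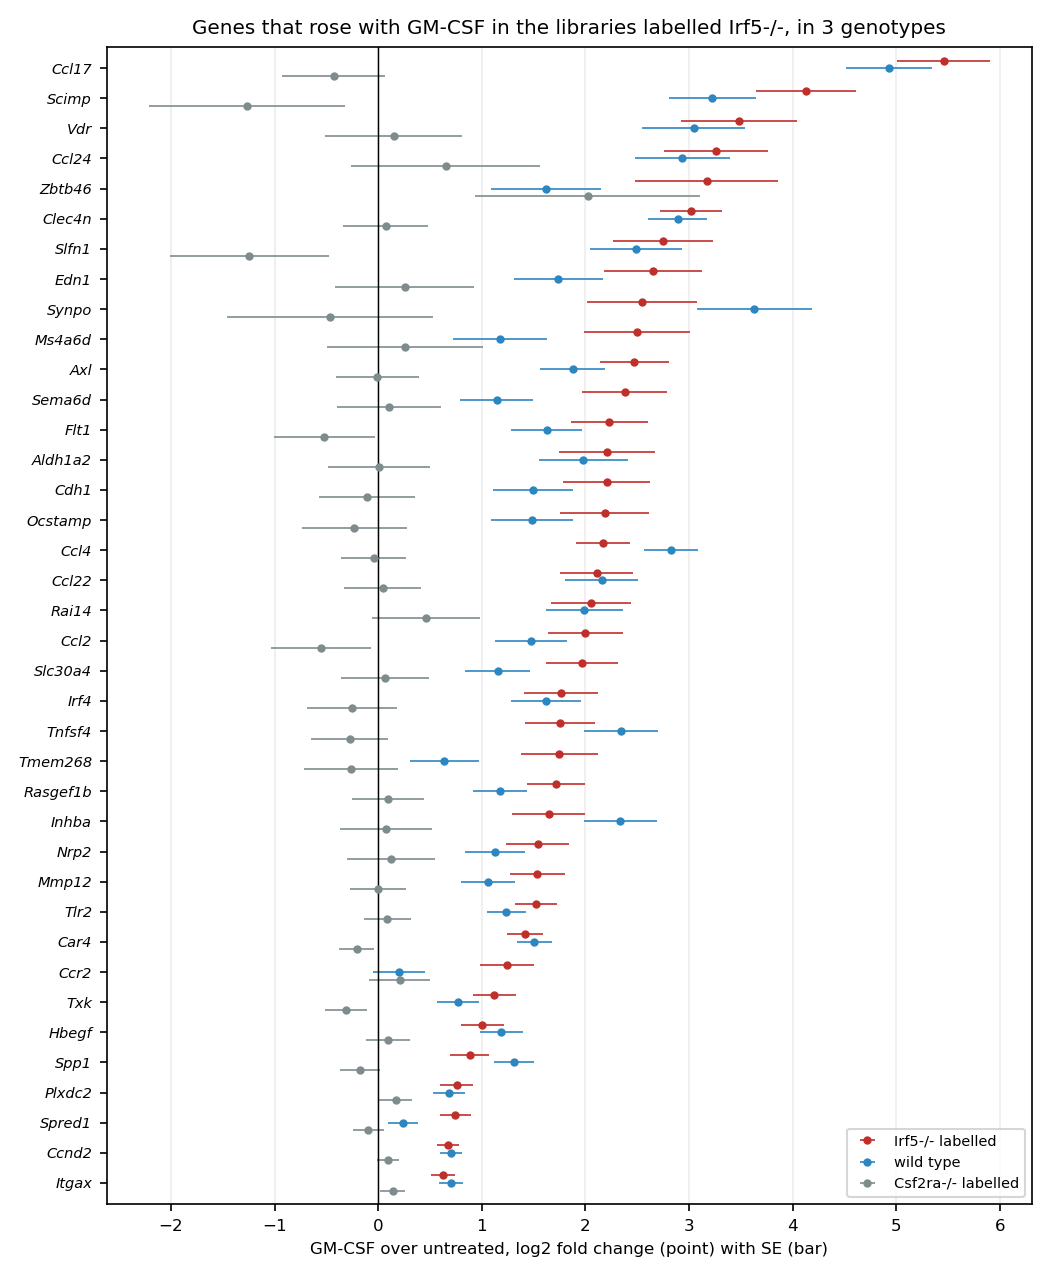
Log2 fold change with its SE for 38 of the 42 genes raised in cells labelled Irf5-/-, in those cells (red), wild type (blue) and cells labelled Csf2ra-/- (grey), without the 4 genes of 0 to 2 untreated counts. Points of cells labelled Csf2ra-/- lie around 0 for most genes, while several of their bars are wide.

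Genes called only in cells labelled Irf5-/- were mostly higher in wild type as well. Cdh1 had 42.9, 21 and 14.7 CPM with GM-CSF and 5.28, 5.24 and 6.34 CPM without in cells labelled Irf5-/-, while wild-type cells had 31.1, 11.4 and 38.8 CPM with and 8.17, 10.5 and 10.1 CPM without. Untreated wild-type libraries were above those labelled Irf5-/-, and the difference between the responses was 0.71 (95% interval -0.47 to 1.89). The untreated levels of Ccr2 lay further apart. It had 7.84 to 14 CPM in untreated cells labelled Irf5-/- and 24.5 to 27.8 CPM in untreated wild-type cells, and wild-type cells with GM-CSF had 34.6, 19.9 and 35.3 CPM. The difference between the Ccr2 responses was 1.04 (0.29 to 1.79, adjusted p = 0.987). Of the 42 genes 30 had the larger response in cells labelled Irf5-/-, which is a description, since the genes were chosen on that response.

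Of the 17 genes that GM-CSF lowered in wild type, edgeR's fit of all 24 libraries called 0 in cells labelled Irf5-/-. There 14 had a negative log2 fold change, and the median was -0.40 beside -1.49 in wild type. Egr1, an immediate early transcription factor gene induced by MAP kinase signalling, had 435, 503 and 414 CPM in treated and 551, 515 and 361 CPM in untreated cells labelled Irf5-/- (-0.08 ± 0.21). Wild-type cells had 67.3, 110 and 118 CPM with GM-CSF and 244, 364 and 378 CPM without (-1.74 ± 0.22). The groups overlapped in cells labelled Irf5-/- and were far apart in wild type. The difference of 1.67 ± 0.30 (95% interval 1.04 to 2.29) had the smallest adjusted p of all genes, 0.194 in edgeR and 0.000717 in DESeq2.

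Fos, which encodes a subunit of the AP-1 transcription factor, had 47.8, 45.5 and 29.8 CPM with GM-CSF and 54.4, 61.2 and 47.0 CPM without in cells labelled Irf5-/- (-0.40 ± 0.39), while wild-type cells had 13.7, 9.65 and 23.2 CPM with and 34.4, 63.6 and 68.5 CPM without (-1.85 ± 0.41). Zfp36, which encodes an RNA-binding protein that degrades cytokine transcripts, and Dusp1, a MAP kinase phosphatase gene, were at -0.19 ± 0.25 and -0.17 ± 0.18 in cells labelled Irf5-/- and at -1.11 ± 0.25 and -1.04 ± 0.19 in wild type. All 4 are quickly induced genes. Of 22 listed immediate early transcription factor genes, edgeR's fit of all 24 libraries called 0 in cells labelled Irf5-/- (1 was higher at an unadjusted p under 0.05). In wild type it called 1 higher and 2 lower. DESeq2 called Nr4a3, an orphan nuclear receptor gene, higher in cells labelled Irf5-/- (1.20, adjusted p = 0.01035). So did edgeR in the fit of only these 6 libraries (0.0285), also with a replicate block (0.0233).

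Some of these 17 genes had lower levels with GM-CSF in cells labelled Irf5-/- as well, without passing in the fit of all 24 libraries. The growth factor gene Igf1 had 3.62, 3.25 and 2.83 CPM with GM-CSF and 5.28, 7.93 and 10.8 CPM without (-1.35 ± 0.36, adjusted p = 0.168), while wild-type cells had 3.49, 1.64 and 5.14 CPM with and 17.2, 20.5 and 19.3 CPM without (-2.49 ± 0.34). DESeq2 called the Igf1 fall in cells labelled Irf5-/- (adjusted p = 0.0372). So did edgeR in the fit of only these 6 libraries (0.0327), also with a replicate block (0.0405). Treated levels of Igf1 overlapped between the genotypes, whereas untreated levels did not. The same held for Cd300ld, a receptor gene, with 11.6 to 12.5 CPM in treated and 12.9 to 13.6 CPM in untreated cells labelled Irf5-/-, and 10.3 to 12.2 CPM in treated and 19.1 to 22.6 CPM in untreated wild-type cells. In 15 of the 17 genes the untreated mean was lower in cells labelled Irf5-/- than in wild type, beside 6062 of all 11885 tested genes. All 17 differences between responses were positive (0.21 to 1.67, median 1.13), and 13 had an unadjusted p under 0.05. Over all tested genes 6080 were positive and 375 had such a p. These counts are a description, since the 17 were chosen for their fall in wild type, which favours high untreated levels there.

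**Figure D5:**
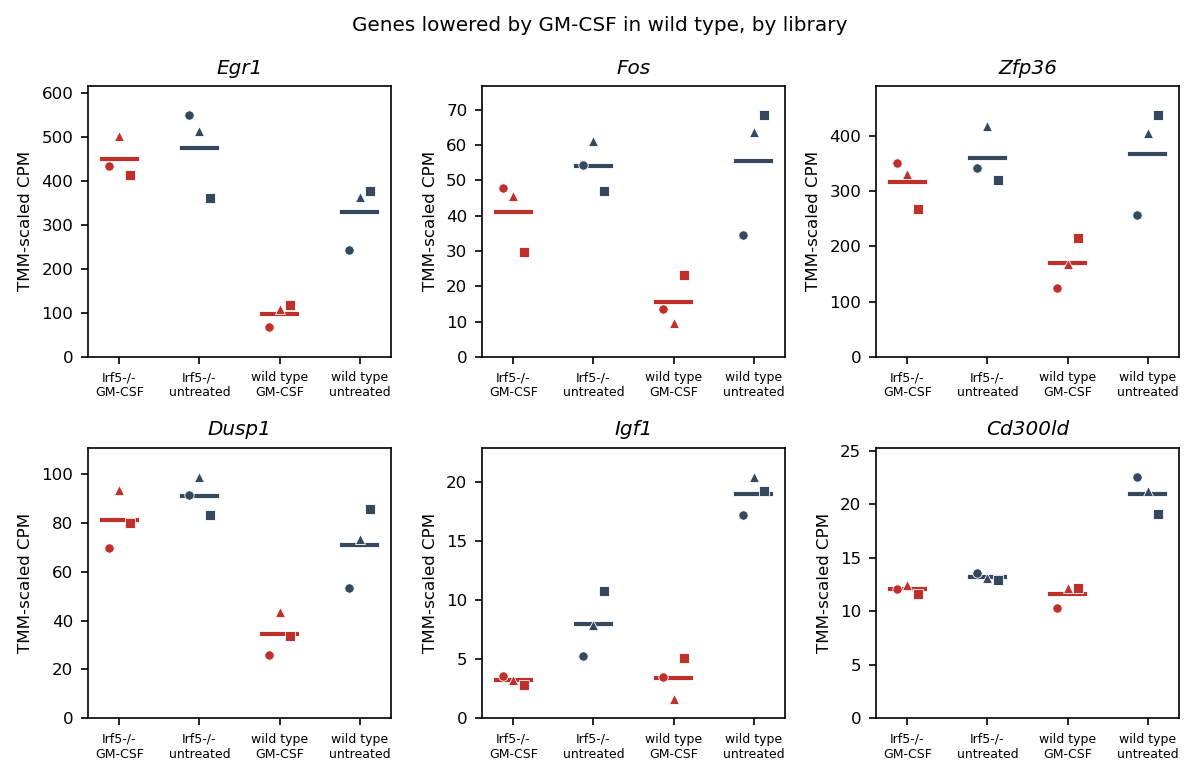
TMM-scaled CPM by library for 6 genes lowered by GM-CSF in wild type, with GM-CSF (red) left of untreated (dark) in each genotype; symbols mark replicates 1 to 3 and bars the mean. Egr1, Fos, Zfp36 and Dusp1 have overlapping groups in cells labelled Irf5-/-, while Igf1 and Cd300ld have lower untreated levels there than in wild type.

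As CPM of the total counts, Csf2ra had 39.2, 40.7 and 38.2 CPM in treated and 28, 29.3 and 37.9 CPM in untreated libraries labelled Csf2ra-/-, so reads over the gene were present under this label too. In these cells GM-CSF changed 0 genes by edgeR, DESeq2 and limma-voom, with 531 at an unadjusted p under 0.05, and 22 of the 42 genes raised in cells labelled Irf5-/- had a positive log2 fold change (median 0.03). The test of the difference called 3 genes (0.0252% of those tested). The Ccl17 response was larger in cells labelled Irf5-/- by 5.88 ± 0.67 (adjusted p = 0.000406), with 2.86, 2.11 and 3.25 CPM in treated and 5.67, 2.89 and 3.25 CPM in untreated cells labelled Csf2ra-/-. The Clec4n response was larger by 2.94 ± 0.51 (adjusted p = 0.0379) and that of Car4 by 1.62 ± 0.24 (adjusted p = 0.00423). Car4 had 74.2, 75.8 and 92.4 CPM in treated and 98.2, 78.6 and 103 CPM in untreated cells labelled Csf2ra-/-, which is close to its untreated level in the cells labelled Irf5-/-. DESeq2 called 17 genes in this difference, among them Axl, Ccl2, Ccl4, Flt1 and Cdh1. The Clec4n difference lost its call in 8 of the 12 fits that left out 1 library (adjusted p up to 0.231), without GM-CSF replicate 1 or 2 or untreated replicate 1 or 2 of the cells labelled Irf5-/-, and without GM-CSF replicate 1 or 2 or untreated replicate 1 or 3 of those labelled Csf2ra-/-.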

How the data were processed

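RNA from bone-marrow-derived eosinophils was sequenced from poly(A) libraries made with a strand-marking kit, per the labels' protocols. The deposited files give 1 raw count per Ensembl gene and library; alignment with STAR and counting with featureCounts on GRCm38.p6 are named, without versions, in the submitters' processing notes. The strand setting is not given in the sources used here. Counts of overlapping, antisense and near-identical genes are therefore uncertain. Symbols and positions came from GENCODE mouse release 21. Of 25746 genes, 34 had no symbol there and held 0.0189% of the counts. Promoter windows are RefSeq's.

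Groups came from genotype and treatment labels. Counts were scaled by TMM in edgeR 4.0.16 on R 4.3.3 (factors 0.9978 to 1.02 in the 6 libraries labelled Irf5-/-), and filterByExpr kept 11885 genes. A model of 8 group means over all 24 libraries was fitted with edgeR's robust quasi-likelihood method (common biological coefficient of variation 14.1%), so all groups share the estimate of the spread. The GM-CSF contrast in cells labelled Irf5-/- and its differences from wild type and from cells labelled Csf2ra-/- were tested, with Benjamini-Hochberg adjustment over all tested genes and a threshold of 0.05. Adjusted p-values are from this test unless another tool is named, and log2 fold changes are given ± SE. Levels are TMM-scaled CPM in order of replicates 1 to 3; sums over lists are CPM of total counts. Replicate numbers follow the order of deposit. In the libraries labelled Irf5-/- the Y-linked sums matched by number between treatments. The labels pair no libraries, and the main test has no block. The fit was tested on simulated counts.

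By rule, the 15 largest rises with an adjusted p under 0.05, separated groups, a mean of at least 5 CPM and an established symbol were named (28 genes qualified, and 0 falls), together with list members and the 5 largest differences in each direction. Members and lists were chosen with earlier results of these data known. Alternatives were other scalings, filters and tools (DESeq2 1.42.0, limma-voom 3.58.1), a non-robust fit, a fit of only the groups compared, a Y-linked covariate, a replicate block and leaving out each library. Leaving out the 2 libraries numbered 1 together was added after the data were seen.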

Additional observations from a re-analysis of the deposited data

Results flagged for a closer look

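In 3 genes the GM-CSF response differed between cells labelled Irf5-/- and cells labelled Csf2ra-/- by a test of the difference itself (edgeR's quasi-likelihood test, Benjamini-Hochberg adjusted over 11885 genes). The Ccl17 response was larger in cells labelled Irf5-/- by 5.88 ± 0.67 on the log2 scale (adjusted p = 0.000406), and every alternative and every fit without 1 library kept this call. The Car4 response was larger by 1.62 ± 0.24 (adjusted p = 0.00423), with the same outcome. The Clec4n response was larger by 2.94 ± 0.51 (adjusted p = 0.0379), and this call was lost with limma-voom (adjusted p = 0.190), with no low-count filter (0.0668), when the fit held the compared groups alone (0.147), with the replicate block (0.0690) and in 8 of the 12 fits without 1 library (up to 0.231).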

How the results depend on the processing

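The 42 genes called in cells labelled Irf5-/-, all higher, were 78 with DESeq2 (76 higher and 2 lower) and 20 with limma-voom, and between 28 and 48 under the other planned settings that kept all libraries of the fit; the cause was not tested. Leaving out 1 of the 6 libraries gave 11 to 41 genes, the lowest without GM-CSF replicate 1, and leaving out both libraries numbered 1 gave 8 (chosen after seeing the data), in fits with fewer samples. The labels pair no libraries. Deviations of same-numbered libraries correlated at 0.0772, 0.195 and 0.0408 over 11885 genes, and GM-CSF replicate 3 correlated best with untreated replicate 1 (0.108). With a replicate block within the 6 libraries 28 genes were called, and with a replicate block and only these 6 libraries in the fit 48, of which 6 were lower. The 0 genes that differed from wild type were 1 with DESeq2 and 0 in all other settings, the replicate block included. The 3 genes that differed from cells labelled Csf2ra-/- were 17 with DESeq2, 2 with the replicate block and 2 to 4 without 1 library. The 27 genes called in both genotypes were 48 with DESeq2, 16 with limma-voom and 19 with the replicate block. Of the 42 genes 5 (Tlr2, Clec4n, Scimp, Ccl4 and Car4) were called in all settings run, and 31 lost their call in some fit without 1 library. Losses with other tools, filters or fits are named above for only some genes. No result changed direction. Depth limits the precision in untreated replicate 1, at 6222979 counts, and for the 14 called genes under 5 CPM.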

Other observations

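Of the lists not described above, those of glycolysis and hypoxia and of ribosome biogenesis had 0 genes called by edgeR, DESeq2 or limma-voom in cells labelled Irf5-/-, with 0 and 2 higher at an unadjusted p under 0.05. All 20 tested genes of glycolysis and hypoxia had a positive value, with a median of 0.13 beside 0.01 over all tested genes, and summed to 26343 to 32087 CPM in treated and 24149 to 25909 CPM in untreated libraries. The highest sum was that of GM-CSF replicate 1 and the lowest that of untreated replicate 1. The same list had a median of -0.18 in wild type. Of 24 ribosome biogenesis genes 20 had a positive value, with a median of 0.13 and sums of 1707 to 1830 CPM in treated and 1514 to 1587 CPM in untreated libraries, and the median in wild type was 0.32.

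Summed over 4 Y-linked genes, levels were 165, 13.4 and 44.2 CPM in GM-CSF-treated and 179, 12.2 and 39.2 CPM in untreated libraries labelled Irf5-/-, so the libraries of like number had like levels. The labels do not say whether they share a culture. The type 2 cytokine gene Il13 had 9.88, 12.1 and 16.2 CPM with GM-CSF and 8.64, 8.65 and 5.95 CPM without in cells labelled Irf5-/- (0.74 ± 0.22, adjusted p = 0.277), while it was called higher in wild type (1.53 ± 0.22). The difference between these responses was -0.80 (95% interval -1.44 to -0.16) and did not pass the test.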
